A study of Bos indicus with 6 samples.

Results

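Insulin-like growth factor (IGF) ligands and receptors were examined in the uterine lining of Nelore cows, a Bos indicus beef breed, after hormonal regimens built to produce ovulation of a large or a small follicle. The set held 4 genes of the 24616 in the deposited table. They were chosen by identifier, by a rule that uses no values, although earlier results of these data were known. The ligands were IGF1 (ENSBTAG00000011082) and IGF2 (ENSBTAG00000013066), and the receptors IGF1R (ENSBTAG00000021527) and IGF2R (ENSBTAG00000002402). The names are those that came with the set. The gene table used here carries no Ensembl identifiers, so the names could not be checked against an annotation. IGF1, IGF2 and IGF2R had reads and passed the filter for testing, and IGF1R was listed at 0.

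IGF1 and IGF2 are small secreted hormones related to insulin. Both signal mainly through IGF1R, a receptor tyrosine kinase that drives growth and survival through the PI3K-AKT and RAS-MAPK pathways. IGF2R, also known as the cation-independent mannose 6-phosphate receptor, carries lysosomal enzymes to lysosomes and takes up IGF2 for degradation, without being a growth-signalling receptor of the IGF1R kind. IGF2 and IGF2R are textbook examples of imprinted genes. In ruminants the uterine IGF system responds to ovarian steroids and is regarded as part of the support that the endometrium gives the embryo before implantation.

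Endometrium from 6 cows was sequenced, 3 from each of 2 regimens. All cows were healthy, multiparous, nonlactating and presynchronized, and all received estradiol benzoate with a progesterone-releasing device on day -10, cloprostenol (a prostaglandin F analogue that makes the corpus luteum regress) when the device was withdrawn, and GnRH on day 0. The LF-LCL cows (large follicle, large corpus luteum) also had cloprostenol on day -10, and their devices came out 42 to 54 hours before GnRH. The SF-SCL cows (small follicle, small corpus luteum) had no cloprostenol on day -10, and their devices came out 30 to 36 hours before GnRH. The early cloprostenol and the timing of device withdrawal thus changed together, and their parts cannot be told apart. Tissue was taken at slaughter on day 7, when the corpus luteum secretes progesterone. The trial had 74 cows (35 LF-LCL, 39 SF-SCL), and the labels do not say how the 6 sequenced ones were picked. The label names whole endometrium, and cell type markers were not analysed here because no identifier could be matched to a symbol. In such tissue, fewer cells of a type and less RNA per cell cannot be told apart.

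The libraries held 2896663 to 7811332 reads assigned to genes. Values below are normalised read counts, that is, reads scaled by the library's size factor. They are not divided by transcript length, so levels are compared between cows and not between genes. On the first principal component (40.1% of the variance over 9517 genes) the regimens did not overlap. The LF-LCL scores were 19.1 to 28.1, SF-SCL replicates 1 and 2 were at -29.3 and -33.7, and SF-SCL replicate 3 was at -7.89, nearest to the other group. Results are also given without SF-SCL replicate 3. Leaving out the cow nearest to the other group widens differences between the groups by construction, so those values are descriptions and no support for a difference.

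IGF1 varied more between cows of a regimen than between the regimens. Its normalised read counts were 237.3, 441.3 and 201.2 in LF-LCL replicates 1 to 3. In SF-SCL they were 286.2, 166.6 and 313.8. The highest cow was LF-LCL replicate 2 and the lowest SF-SCL replicate 2, and the groups overlapped throughout. LF-LCL averaged 293.3 ± 129 (SD, n = 3), against 255.5 ± 78.3 (SD, n = 3) for SF-SCL. An LF-LCL cow was above an SF-SCL cow in 5 of 9 pairings.

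The log2 difference of IGF1, LF-LCL minus SF-SCL, was 0.16 (SE 0.33; limma, adjusted p = 0.846; two-sided exact permutation test p = 0.8, with 0.1 as the lowest value that 3 against 3 can reach). Its 95% confidence interval ran from a fold of 0.664 to a fold of 1.89, so that a change of 1.5-fold in either direction lies inside it. Without SF-SCL replicate 3 the log2 difference was 0.34 (limma, adjusted p = 0.672). It turned to -0.17 when LF-LCL replicate 2, the highest cow, was left out (limma, adjusted p = 0.826), and to -0.12 when SF-SCL replicate 2, the lowest, was left out (limma, adjusted p = 0.907).

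The spread of IGF1 between cows was larger than counting error. The libraries held 143 to 530 reads of the gene, and the exact Poisson 95% interval of LF-LCL replicate 2 (404.6 to 480.6) lay above those of all other cows. Within the regimens, the variance of the reads was 45.3 times the variance that counting alone gives. Counting intervals here treat reads as independent, which without molecular identifiers they need not be, and so cover counting error alone. The highest cow was at 2.65 times the lowest. On the log2 scale, the within-group SD was 0.546, against a median of 0.300 over all 12535 genes tested, and 27.2% of tested genes had a larger one. Over tested genes with a mean of at least 100, the median was lower, at 0.183.

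IGF2 had nearly the same average in both regimens. Its normalised read counts were 3940, 4272 and 2595 in LF-LCL replicates 1 to 3. In SF-SCL they were 3904, 3095 and 3622. The LF-LCL group contained both the 2 highest cows and the lowest one, and the SF-SCL values lay inside that range. LF-LCL averaged 3602 ± 888 (SD, n = 3), against 3540 ± 411 (SD, n = 3) for SF-SCL.

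For IGF2 the log2 difference, LF-LCL minus SF-SCL, was -0.001 (SE 0.20; limma, adjusted p = 0.999; exact permutation test, two-sided, p = 1). The 95% confidence interval of the fold was 0.727 to 1.37, narrower than that of IGF1. With 3 cows per regimen, a difference inside this interval is not excluded. The sign of so small a value differed between tests: the log2 difference was 0.02 with edgeR and TMM factors, -0.05 with edgeR and upper quartile factors, and 0.03 with DESeq2. Without SF-SCL replicate 3 the log2 difference was 0.02 (limma, adjusted p = 0.977), and without LF-LCL replicate 3, the lowest cow, it was 0.22 (limma, adjusted p = 0.547).

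IGF2 was the member with most reads, 1844 to 7008 per library. Per 1000000 assigned reads, it took 572.7 to 897.2. At that depth the counting interval was narrow, from 2478 to 2716 in LF-LCL replicate 3, the cow with fewest reads of the gene. The next lowest cow, SF-SCL replicate 2, had an interval of 3003 to 3190. Within-group variance of the reads was 114 times the counting variance. The within-group SD on the log2 scale (0.298) was close to the median of all tested genes (0.300). It was above the median of tested genes with a mean of at least 100 (0.183). In the RefSeq gene table used here (assembly NIAB-ARS_B.indTharparkar_mat_pri_1.0), no other gene overlapped any of the 4 members, looked up by symbol. Overlaps in the annotation that was used to count the reads were not checked.

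**Figure D1:**
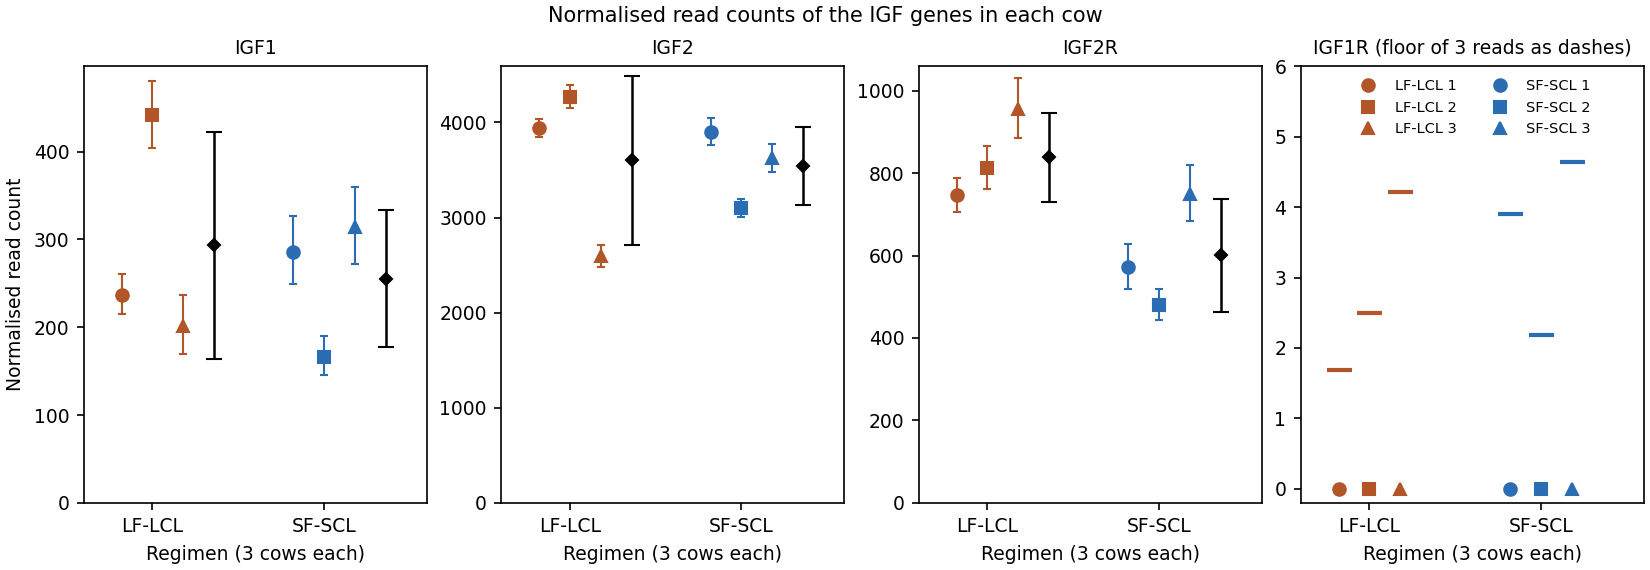
Normalised read counts (vertical axis, linear) of the 4 IGF genes in each cow by regimen (horizontal axis). Coloured points are single cows with exact Poisson 95% counting intervals, and black diamonds with bars are the mean ± SD of 3 cows. Neither intervals nor diamonds are drawn in the IGF1R panel, where dashes mark the value of 3 reads in each library, 1.69 to 4.64. IGF1 and IGF2 overlap widely between the regimens, whereas for IGF2R the lowest LF-LCL cow (746.1) lies just under the highest SF-SCL cow (749.7).

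IGF1R, the receptor through which both ligands mainly signal, was listed at 0 in all 6 libraries. A count of 0 allows up to 3 reads, equal to 1.69 on the normalised scale for LF-LCL replicate 1 (the deepest library) and to 4.64 for SF-SCL replicate 3 (the shallowest). No fold change or test was possible. Of the 24616 rows in the table, 9148 (37.2%) were at 0 in every library. The value describes the row with this identifier. Whether reads of the receptor were left uncounted or assigned elsewhere was not tested, so the entry is not evidence that the receptor's RNA was absent from the tissue.

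IGF2R was the member with the largest difference between the regimens, and the difference did not pass the threshold. Its normalised read counts were 746.1, 812.7 and 955.4 in LF-LCL replicates 1 to 3. In SF-SCL they were 571.1, 480.1 and 749.7. The overlap came from a single pairing, since SF-SCL replicate 3 lay 3.68 above LF-LCL replicate 1 and the LF-LCL cow was higher in the other 8 of 9 pairings. LF-LCL averaged 838.1 ± 107 (SD, n = 3), against 600.3 ± 137 (SD, n = 3) for SF-SCL.

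The log2 difference of IGF2R, LF-LCL minus SF-SCL, was 0.50 (SE 0.18), a fold of 1.41 with a 95% confidence interval of 1.07 to 1.87 (limma, unadjusted p = 0.0217, adjusted p = 0.205). The exact permutation test over the 6 cows gave p = 0.2 (two-sided, smallest possible 0.1). An unadjusted p under 0.05 was found for 17.1% of all tested genes, and 1324 genes (10.6%) had a smaller p than IGF2R. With edgeR's quasi-likelihood test on the recovered reads the log2 difference was 0.48 (adjusted p = 0.199), and with DESeq2 it was 0.48 (adjusted p = 0.171).

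The value of IGF2R depended most on SF-SCL replicate 3. Without that cow the groups did not overlap, a property shared by 37.9% of the genes tested in that fit. The log2 difference was then 0.67 (limma, unadjusted p = 0.00253, adjusted p = 0.0637). Without SF-SCL replicate 2, the lowest cow, the log2 difference was 0.35 (limma, adjusted p = 0.459). LF-LCL was higher in each of the 6 fits that left out a cow, with adjusted p from 0.0637 to 0.459 (limma). In 3 of these fits the 95% confidence interval of the log2 difference included 0, with lower limits of -0.051 (LF-LCL replicate 3 left out), -0.023 (SF-SCL replicate 1 left out) and -0.055 (SF-SCL replicate 2 left out). Within a regimen, the 679 reads of LF-LCL replicate 3 and the 1327 of LF-LCL replicate 1 gave counting intervals that did not overlap (884.9 to 1030 against 706.5 to 787.3), and variance was 21 times that of counting. The within-group SD of 0.262 on the log2 scale was the smallest of the 3 measured members. It was below the median of all tested genes (0.300) and above that of tested genes with a mean of at least 100 (0.183).

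None of the 3 members tested was called (limma, adjusted p under 0.05), against 0.965% of all 12535 genes tested in the same fit. IGF2R was the 1 member with an unadjusted p under 0.05. edgeR called 0 of the 3 (0.835% of the 10177 genes that passed its filter). DESeq2 also called 0 of the 3 (4.45% of all 15468 genes with a read). That last share counts any gene that DESeq2 left without an adjusted p as not called. Without SF-SCL replicate 3 limma again called 0 of the 3, where 2.95% of genes were called. With all cows the groups overlapped for each of the 3 members. No overlap was seen for 22.8% of tested genes, and at that share 3 genes are too few to set the members apart. The median log2 difference over the 3 members was that of IGF1 itself (0.16), with IGF2 at -0.001 and IGF2R at 0.50. The median over all tested genes was -0.01.

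**Figure D2:**
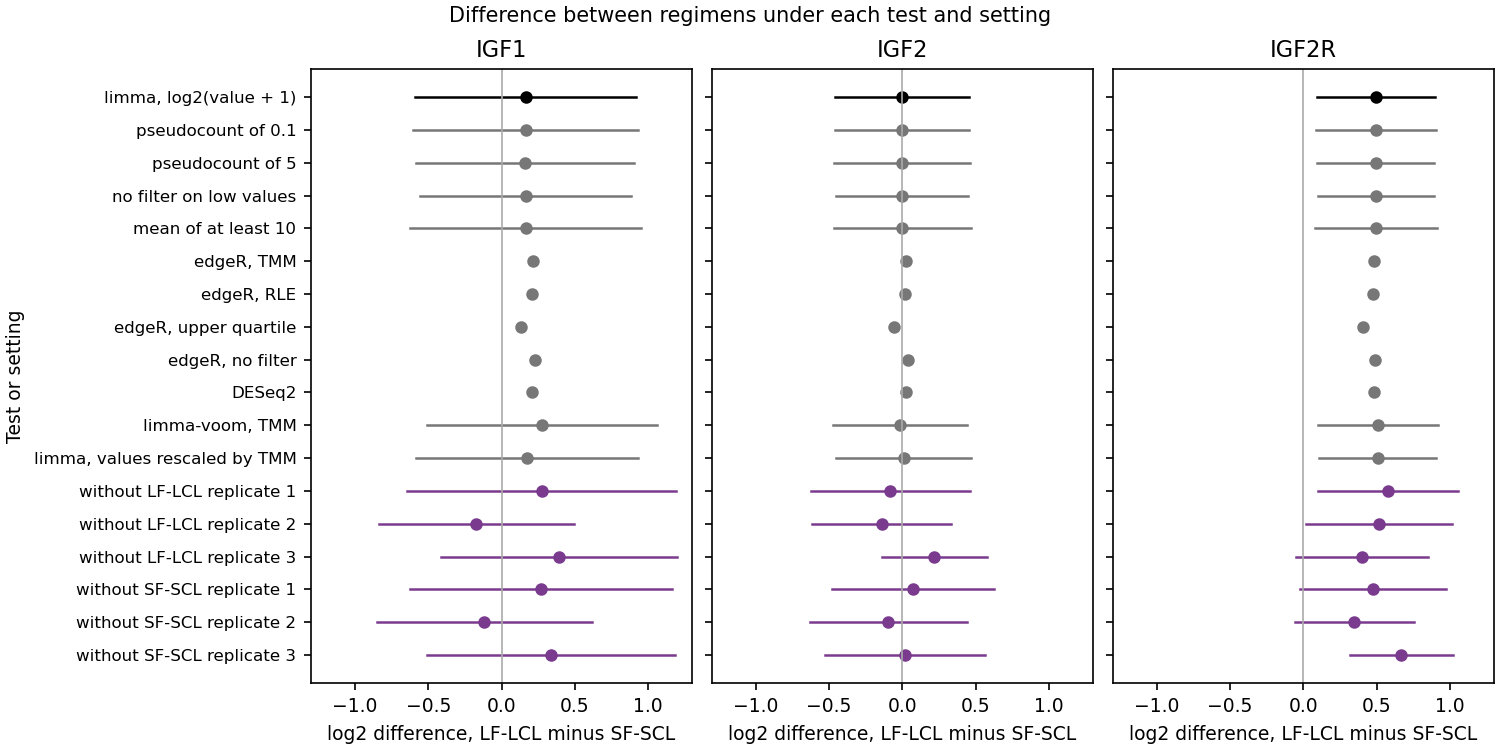
Log2 difference, LF-LCL minus SF-SCL (horizontal axis), of IGF1, IGF2 and IGF2R under each test and setting (vertical axis). Bars are 95% confidence intervals where the tool gives them; black is the limma fit reported in the text, grey other settings with 6 cows, purple fits without 1 cow. The IGF2R estimate is above 0 in each fit without 1 cow (0.35 to 0.67), although 3 of those 6 intervals include 0, while IGF1 and IGF2 fall on either side of it.

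Ratios between members within a library do not depend on the scaling between libraries, apart from the pseudocount of 1. Transcript length cancels when such a ratio is compared between cows, but its size is not a ratio of molecules. For IGF2 to IGF2R, the ligand and the receptor that clears it, the reads ratio was 5.28, 5.26 and 2.72 in LF-LCL replicates 1 to 3. In SF-SCL it was 6.84, 6.45 and 4.83. The lowest ratio belonged to LF-LCL replicate 3, the cow with the lowest IGF2 and the highest IGF2R, and SF-SCL replicate 3 lay below the other LF-LCL cows. On the log2 scale the ratio averaged 2.08 ± 0.55 (SD, n = 3) for LF-LCL, against 2.58 ± 0.27 (SD, n = 3) for SF-SCL, a difference of -0.50 (exact permutation test, two-sided, p = 0.3, adjusted p = 0.6 over 3 ratios). Without LF-LCL replicate 3 that difference was -0.18 (exact permutation test, p = 0.6), and without SF-SCL replicate 3 it was -0.65 (exact permutation test, p = 0.2). The lowest p this test can reach is 0.1 with all cows and 0.2 with 1 cow left out. No ratio could therefore pass a threshold of 0.05, and these p-values cannot show that the regimens are alike.

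The balance of the ligands varied between cows of a regimen, and the groups overlapped. With 3 cows per regimen, a difference between the regimens is not excluded. There were 16.6, 9.68 and 12.9 IGF2 reads per IGF1 read in LF-LCL replicates 1 to 3. In SF-SCL there were 13.6, 18.6 and 11.5. The log2 ratio of IGF1 to IGF2 averaged -3.67 ± 0.39 (SD, n = 3) for LF-LCL, against -3.83 ± 0.35 (SD, n = 3) for SF-SCL, a difference of 0.17 (exact permutation test, two-sided, p = 0.6, adjusted p = 0.6). For IGF1 to IGF2R, the log2 ratio was -1.59 ± 0.68 (SD, n = 3) and -1.26 ± 0.26 (SD, n = 3), a difference of -0.33 (exact permutation test, two-sided, p = 0.5, adjusted p = 0.6). That last difference was -0.008 once LF-LCL replicate 3 was left out, and -0.69 once LF-LCL replicate 2 was.

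**Figure D3:**
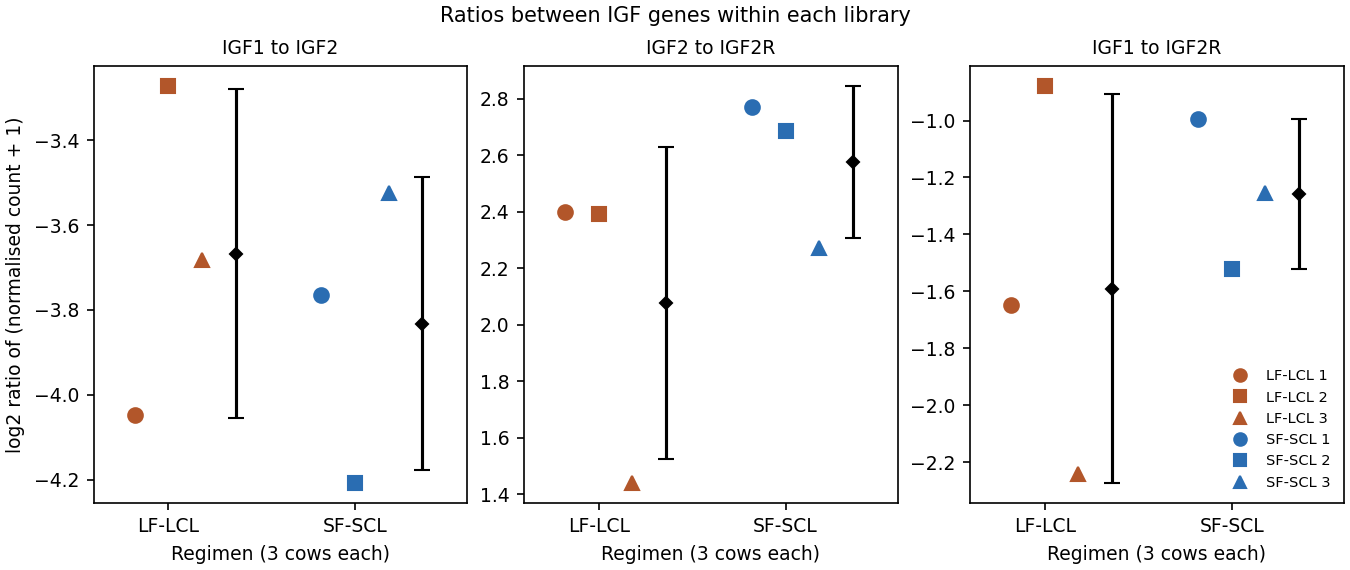
Log2 ratio between members within each library (vertical axis, normalised read count + 1) by regimen (horizontal axis). Coloured points are single cows, and black diamonds with bars are the mean ± SD of 3 cows. The groups overlap for all 3 ratios, and LF-LCL replicate 3 is the lowest cow for IGF2 to IGF2R (1.44) and for IGF1 to IGF2R (-2.24).

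The ligands tended to be high or low in the same cows, without passing the test. LF-LCL replicate 2 had the highest IGF1 and the highest IGF2, while SF-SCL replicate 2 and LF-LCL replicate 3 had the 2 lowest values of both. Over the 6 cows, Pearson's r of the log2 values was 0.76 (exact permutation test, p = 0.0639, adjusted p = 0.192 over 3 pairs of members) and Spearman's rho 0.714 (exact permutation test, p = 0.136, adjusted p = 0.408). It was 0.702 over the 4 cows left after removing those farthest from the median of IGF1, and 0.773 after each regimen was centred on its mean. Among 7921 genes with a mean of at least 50, 5.05% were at least as alike to IGF1 as this. All values of a cow share 1 library and its size factor.

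IGF2R did not follow either ligand closely. Its r was 0.359 with IGF1 (exact permutation test, p = 0.486, adjusted p = 0.729; rho 0.371, exact permutation test, p = 0.497, adjusted p = 0.746). With IGF2 its r was -0.127 (exact permutation test, p = 0.847, adjusted p = 0.847; rho -0.0286, exact permutation test, p = 1). Both rested on single cows. Over the 4 cows nearest the median of the ligand r became -0.707 with IGF1 and 0.27 with IGF2, and without LF-LCL replicate 3 it was 0.787 with IGF1 and 0.779 with IGF2. Regimens of 3 cows were too small for values within each.

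**Figure D4:**
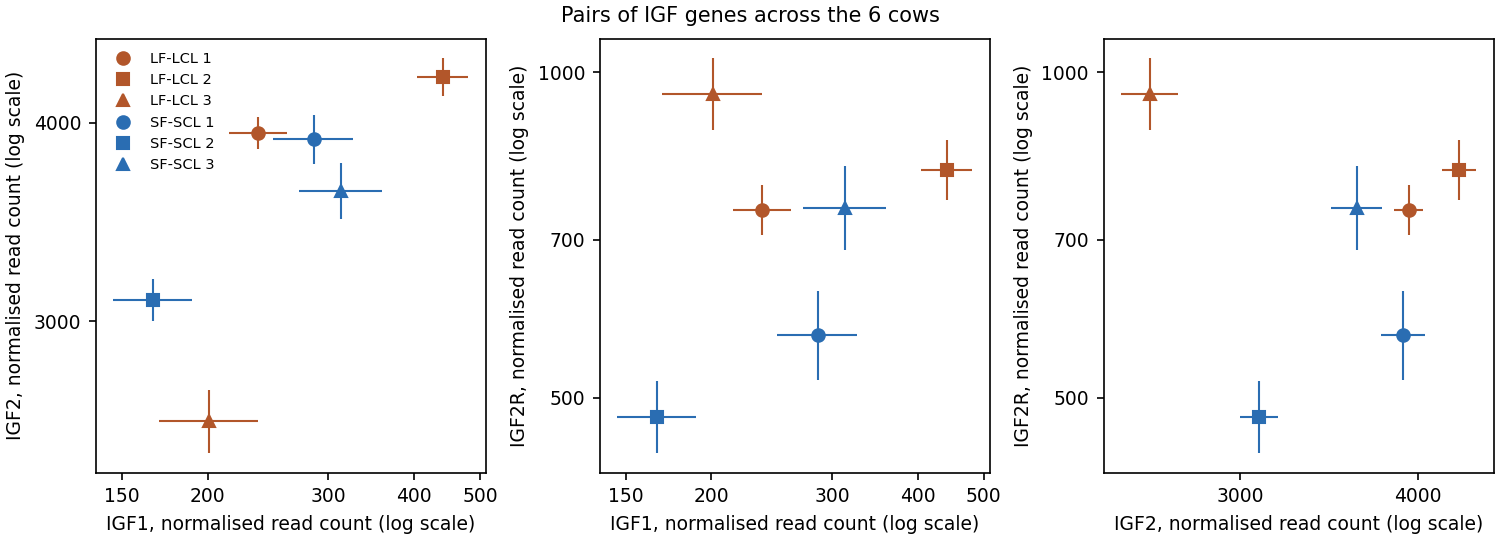
Normalised read counts of each pair of measured members in the 6 cows, both axes on log scales. Points are single cows, with exact Poisson 95% counting intervals. IGF1 and IGF2 are both highest in LF-LCL replicate 2 (441.3 and 4272), and LF-LCL replicate 3 lies away from the other cows in the panels with IGF2R (955.4).

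Genes with the most similar pattern were sought over the 6 cows by Pearson's r of log2 values, among the 7921 genes with a mean of at least 50. They are given by identifier, since no names could be paired. ENSBTAG00000004494 was most alike to IGF1 (r = 0.999), with normalised read counts of 55.66, 88.27 and 49.25 in LF-LCL and 63.74, 44.37 and 68.02 in SF-SCL. ENSBTAG00000003580 was most alike to IGF2 (r = 0.99), and it ranged from 37.99 in LF-LCL replicate 3 to 197.4 in LF-LCL replicate 2, a wider range than that of IGF2. ENSBTAG00000010498 was most alike to IGF2R (r = 0.996), at 831.5, 868.5 and 1169 in LF-LCL and 547.7, 405.2 and 842.5 in SF-SCL. None of these 3 genes was called between the regimens (limma, adjusted p = 0.891, 0.959 and 0.205). They were picked for likeness to members that were not called, so this is no separate result. An r of at least 0.95 was reached by 14 genes for IGF1, 20 for IGF2 and 74 for IGF2R. With 6 cows and so many genes searched, such values describe these libraries only.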

How the data were processed

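Endometrial RNA was sequenced in 6 cows, 3 per regimen, grouped by sample title. Replicates are numbered by accession, which pairs no cows. The submitters' processing notes name DESeq 1.12.1, HTSeq 0.5.4p2, SAMtools 0.1.18, Bowtie2 2.1.0 and CASAVA 1.8.2, without roles. Genome build, annotation release and strand setting were not given in the sources used here. Reads of IGF2 or IGF2R and of any transcript antisense to them could not be separated. Per gene, the authors deposited a signal that is never negative, namely reads scaled by the library's size factor. All values above 0 (100%) were whole multiples of the value of 1 read, to within 0.01 reads, and the implied size factors equalled recomputed median-of-ratios factors.

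Genes with a mean of at least 1 were tested with limma 3.58.1 (R 4.3.3) on log2(value + 1), trend on, group as the only term, Benjamini-Hochberg adjustment over all 12535 genes, threshold 0.05. Fold changes are on that log2 scale. edgeR 4.0.16 and DESeq2 1.42.0 were run on the recovered reads. Alternatives were pseudocounts of 0.1 and 5, no filter, a mean of at least 10, edgeR with RLE or upper quartile factors or no filter, limma-voom, TMM rescaling, and leaving out each cow. The tests were tested on simulated data. P-values of limma, edgeR and DESeq2 set the regimen difference against the spread between these cows, estimated with information shared across genes. Exact p-values come from permuting the cows.

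The members, tests and lists were chosen with earlier results of these data known. Naming rule: all 4 members, plus for each the identifier with the highest r. Relations between members were added after the values were seen. The table holds no columns of other samples (0). The lists of IGF binding proteins, signalling genes and cell type markers could not be matched, because 0 of 24616 identifiers were in the gene table (RefSeq, NIAB-ARS_B.indTharparkar_mat_pri_1.0). Ratios with IGF1R were not computed, as its row is at 0. The labels name no sequencing batch or date, so values within a batch could not be given.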

Additional observations from a re-analysis of the deposited data

How the results depend on the processing

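None of the 3 measured members passed the threshold in any of the 12 fits with all cows or the 6 fits without 1 cow (lowest adjusted p 0.0637, for IGF2R without SF-SCL replicate 3). IGF2R kept its direction in all 17 alternatives, from 0.41 to 0.51 on the log2 scale with 6 cows and from 0.35 to 0.67 with 1 cow left out, where 3 of the 6 95% intervals included 0. All these fits reuse the same cows and are not independent of each other. The IGF1 difference was 0.13 to 0.27 with 6 cows and -0.17 to 0.39 without 1 cow, being -0.173 without LF-LCL replicate 2 and -0.117 without SF-SCL replicate 2. The IGF2 difference, near 0 in the main result, changed sign with edgeR (0.024 with TMM, 0.018 with RLE, 0.038 without a filter), DESeq2 (0.026) and TMM rescaling (0.009), and ran from -0.140 to 0.219 without 1 cow; the cause was not tested. The IGF1 to IGF2 ratio differed by -0.033 to 0.355 without 1 cow, the IGF2 to IGF2R ratio by -0.659 to -0.180 and the IGF1 to IGF2R ratio by -0.689 to -0.008. Pearson's r between IGF1 and IGF2 was 0.661 to 0.845 without 1 cow, that between IGF1 and IGF2R -0.222 to 0.787, and that between IGF2 and IGF2R -0.609 to 0.779. Over all genes, limma called 121, edgeR with upper quartile factors 55, edgeR without a filter 391 and DESeq2 689, and leaving out 1 cow gave 0 to 370 calls; the cause was not tested. For IGF1R, listed at 0, the floor was 3 reads per library, and why its row is at 0 was not tested. For the other members the spread between cows exceeded counting error.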
